A study of Mus musculus with 6 samples.

Results

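The SLC25 carriers and uncoupling proteins were followed in mouse splenic CD11c+ dendritic cells given IL-33, an IL-1-type cytokine, or PBS, the saline vehicle. Members were every gene symbol beginning with Slc25a together with Ucp1, Ucp2 and Ucp3, which gave 50 of the 24346 genes listed for each library. There were 3 libraries of IL-33-treated cells and 3 libraries of PBS-treated cells, and the same protocol is described for both groups. Spleen cells were enriched for CD11c on an autoMACS magnetic sorter, RNA was column-purified and treated with DNase, and libraries were made with a TruSeq stranded mRNA kit. The labels give no strain, age, dose or time, and do not say whether IL-33 was given to the animal or to cells in culture. Nor do they tell whether replicate libraries were made from different animals or cultures, so every p-value reflects library-to-library spread alone, and that spread may be technical.

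SLC25 proteins carry small molecules across the inner mitochondrial membrane, which is otherwise closed to charged metabolites. They exchange ADP for ATP, bring in phosphate, pass di- and tricarboxylates, amino acids, acylcarnitines, cofactors, iron and glutathione, and in the uncoupling proteins return protons or exchange metabolites. They are made in the cytosol and inserted by a dedicated import route. In immune cells, dendritic cells included, Ucp2 is the uncoupling protein usually found, whereas Ucp1 is known from brown fat and Ucp3 from muscle.

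Levels are in FPKM (fragments per kilobase of transcript, scaled for mapped fragments) and were tested where a gene reached 1 FPKM in at least 3 of the 6 libraries. Of the 50 members, 39 were tested and 11 were under 1 FPKM in every library. Each change is the IL-33 mean minus the PBS mean of log2(FPKM + 1), a scale that understates the change of low genes. A call is a limma adjusted p under 0.05 over all 11518 tested genes. FPKM summed over all genes was larger in every IL-33 library, at 778391 to 841884, against 614522 to 641412 in PBS libraries, and dividing by these totals shifted the median change of all genes by -0.30. Calls of single carriers that depend on that shift, and partner counts, are given with equal totals beside them. Marker values, and counts of members by level, role or separation, are on the deposited scale only and may depend on it.

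Listed markers of conventional dendritic cells were present in the sorted cells, and they changed in both directions. Itgax, which encodes CD11c, was at 272, 300 and 276 FPKM in IL-33 libraries and 228, 249 and 247 FPKM in PBS libraries, and the 10 listed markers summed to 21863 to 23631 FPKM with IL-33 and 14763 to 15598 FPKM with PBS. Of these 10, 5 were called higher and 4 lower. Markers of other cells were counted too, beside 28.0% of all tested genes called higher and 25.5% lower. Between 10 and 100 FPKM these shares were 33.7% and 22.5%, and at 100 FPKM or more 66.3% and 6.72%. Called higher were 6 of 8 eosinophil markers (summed level 870 to 1238 FPKM with IL-33, 216 to 310 FPKM with PBS), 7 of 8 tested neutrophil markers (1218 to 2455 against 479 to 791 FPKM), 5 of 6 plasma cell markers (405 to 436 against 131 to 178 FPKM) and 6 of 10 genes of cycling cells (458 to 504 against 301 to 418 FPKM). Called lower were 9 of 9 T cell markers (137 to 147 FPKM with IL-33, 288 to 504 FPKM with PBS), 6 of 7 NK cell markers (118 to 160 against 298 to 390 FPKM), 3 of 4 plasmacytoid dendritic cell markers (179 to 208 against 217 to 277 FPKM) and 2 of 7 B cell markers (346 to 465 against 302 to 723 FPKM). Of 10 macrophage and monocyte markers, 4 were called higher and 1 lower (3803 to 4923 FPKM with IL-33, 2460 to 4163 FPKM with PBS). The B cell share called lower (28.6%) was near that of all tested genes. The macrophage and monocyte share called higher (40%) lay between those of the 10 to 100 FPKM and 100 FPKM or more ranges. No listed marker in the files was at 0 in every library. What part such cells had in the carrier values was not tested, and in these bulk libraries fewer cells of a type and less RNA per cell cannot be told apart.

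Carrier transcripts were dominated by 4 genes, and all 4 were higher with IL-33. Summed over the 50 members, the family reached 2866, 2716 and 2691 FPKM in IL-33 libraries, against 1724, 1783 and 1853 FPKM in PBS libraries. As a share of all FPKM this was 0.340, 0.349 and 0.344% with IL-33 and 0.281, 0.278 and 0.289% with PBS, so the groups did not overlap on either scale. Ucp2, Slc25a5, Slc25a3 and Slc25a4 made up 81.1, 80.7 and 80.9% of the family's FPKM in IL-33 libraries and 73.1, 74.8 and 74.9% in PBS libraries. The remaining 46 members summed to 541, 525 and 513 FPKM with IL-33 and 465, 450 and 465 FPKM with PBS. As a share of all FPKM those 46 went the other way, at 0.0643, 0.0674 and 0.0656% with IL-33 and 0.0756, 0.0701 and 0.0726% with PBS.

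**Figure D1:**
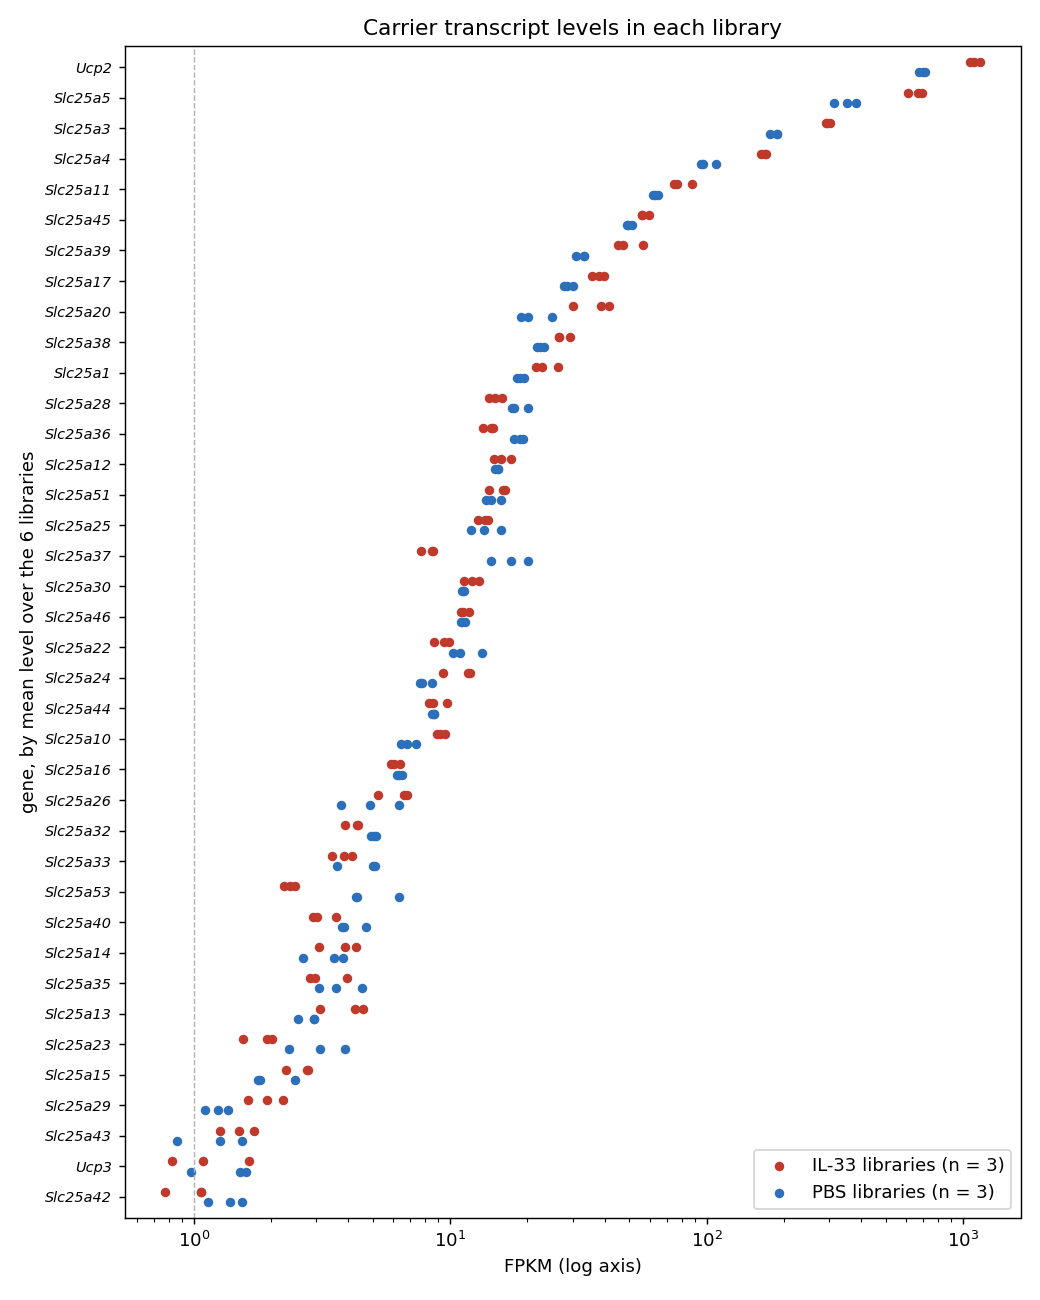
Level in FPKM (log axis) of 38 tested carriers, ordered by their mean over the 6 libraries, with 1 point per library, IL-33 above PBS within each gene; the dashed line marks 1 FPKM. The points of Ucp2, Slc25a5, Slc25a3 and Slc25a4 lie apart by group with IL-33 higher, and those of Slc25a37 and Slc25a53 lie apart with IL-33 lower.

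By the limma test, 16 of the 39 tested members were called higher (41.0%, against 28.0% of all tested genes) and 5 lower (12.8%, against 25.5% of all tested genes), and 18 did not pass. In either direction that is 21 of 39, against 53.6% of all tested genes. The median change of the tested members was 0.13, against 0.01 over all tested genes. With equal totals the medians were -0.14 for the members and -0.29 for all tested genes, and the calls were 6 higher (11.0% of all genes) and 15 lower (50.9% of all genes). The 10 members called lower with equal totals but not on the deposited scale were Slc25a12, Slc25a16, Slc25a22, Slc25a25, Slc25a32, Slc25a33, Slc25a40, Slc25a42, Slc25a44 and Slc25a46. Quantile scaling gave 15 higher and 5 lower (22.1% and 25.0% of all genes), and cyclic loess scaling gave 15 higher and 4 lower (23.7% and 23.0% of all genes). The 3 IL-33 libraries all lay above the 3 PBS libraries for 17 members (32.7% of all tested genes did so) and all lay below them for 9 (30.9% of all tested genes).

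More of the abundant members were called higher, and the same held for all genes. At 100 FPKM or more on average, 4 of 4 members were called higher and 0 lower, against 66.3% and 6.72% of 893 genes, with median changes of 0.71 for the members and 0.44 for all genes of that level. Between 10 and 100 FPKM, 8 of 17 members were called higher and 3 lower, against 33.7% and 22.5% of 5596 genes, with median changes of 0.11 and 0.08. Between 1 and 10 FPKM, 4 of 18 members were called higher and 2 lower, against 14.7% and 32.1% of 4917 genes, with median changes of -0.01 and -0.13.

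**Figure D2:**
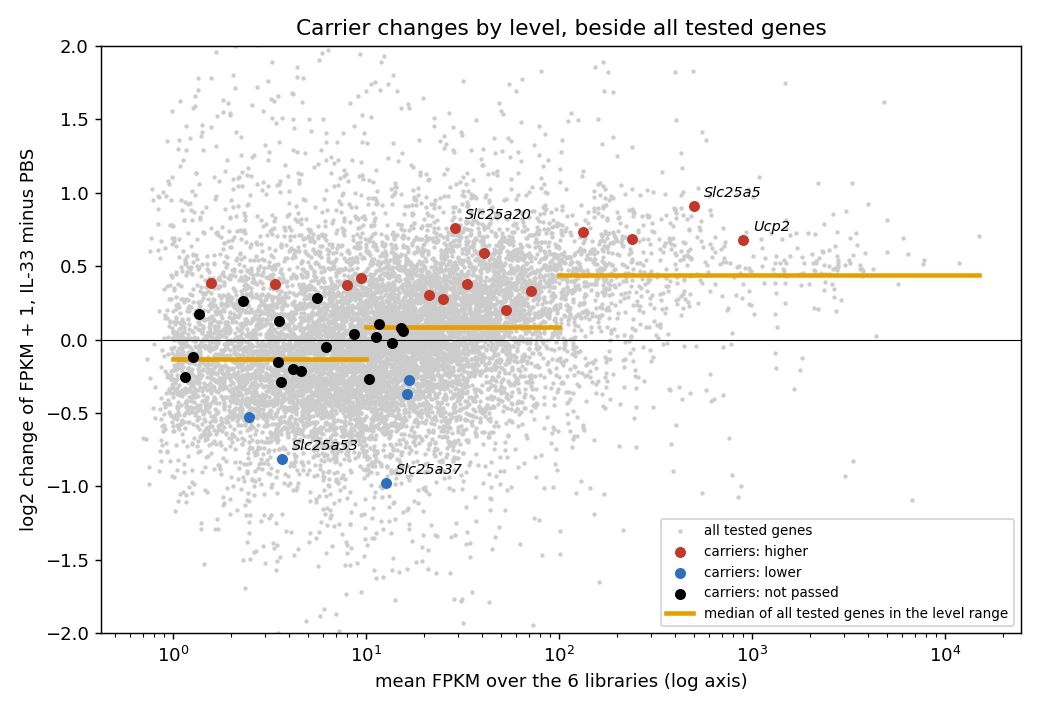
Change in log2(FPKM + 1), IL-33 minus PBS, against the mean level of each tested gene, with all tested genes in grey the carriers coloured by call and orange lines for the median of all genes in each level range; 114 tested genes lie beyond the plotted range of 2 in either direction. The 4 most abundant carriers sit between 0.68 and 0.91, where the median of all genes of 100 FPKM or more is 0.44.

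Ucp2, the uncoupling protein of immune cells, was the most abundant carrier in every library. It measured 1162, 1065 and 1107 FPKM with IL-33 and 675, 695 and 709 FPKM with PBS. The groups were far apart relative to their spread, with means of 1111 ± 48.8 and 693 ± 17.1 FPKM (SD, n = 3 each) and a change of 0.68 (SE 0.07, limma adjusted p = 0.000511). The change was 0.34 with equal totals, 0.29 with quantile scaling and 0.19 with cyclic loess scaling, called each time. Ucp2 lies on chromosome 7 (100493337 to 100502020, plus strand, mm10), and 4.36% of its exon bases are shared with Dnajb13 on the opposite strand.

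Other uncoupling proteins and their close relatives were low. Slc25a30, a close relative of the uncoupling proteins, was at 11.3, 12.2 and 12.99 FPKM with IL-33 and 11.2, 11.3 and 11.1 FPKM with PBS, a change of 0.11 that did not pass (SE 0.07, limma adjusted p = 0.251). Ucp3 was near 1 FPKM, at 0.82, 1.08 and 1.64 FPKM with IL-33 and 0.97, 1.51 and 1.60 FPKM with PBS. Ucp1, the brown fat protein, and Slc25a27 were under 1 FPKM in all 6 libraries. In this role group, Ucp2 was the 1 call among 4 tested of 6 members.

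The ADP/ATP exchangers of the inner membrane followed the same direction. Slc25a5, the exchanger typical of dividing cells, measured 691, 668 and 608 FPKM with IL-33 and 313, 354 and 382 FPKM with PBS. Its lowest IL-33 library was well above its highest PBS library. Its change of 0.91 (SE 0.09, limma adjusted p = 0.000553) was the highest among the tested members on the deposited scale and with equal totals. With quantile and cyclic loess scaling Slc25a20 was the highest (0.67 in both). Slc25a10, Slc25a13 and Slc25a24 also lay above Slc25a5 with both of those scalings, and Slc25a29 did so with cyclic loess. Slc25a4, the exchanger typical of heart and muscle, measured 169, 163 and 170.0 FPKM with IL-33 and 95.4, 97.0 and 109 FPKM with PBS, a change of 0.73 (SE 0.07, limma adjusted p = 0.000484). For Slc25a5 the change was 0.57 with equal totals, 0.45 with quantile and 0.46 with cyclic loess scaling, and for Slc25a4 it was 0.39, 0.41 and 0.39, called each time. These genes are close paralogues and Slc25a5 has an annotated pseudogene, Slc25a5-ps, so how the authors' counting divided shared reads could affect each value. Slc25a31, a further ADP/ATP exchanger best known from testis, was under 1 FPKM throughout.

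Slc25a3, which imports the phosphate that ATP synthase needs and also carries copper, moved by about the same amount. It measured 303, 295 and 292 FPKM with IL-33 and 176, 187 and 188 FPKM with PBS, a change of 0.69 (SE 0.06, limma adjusted p = 0.000342). The groups did not overlap, and the change was 0.35 with equal totals, 0.30 with quantile and 0.29 with cyclic loess scaling, called each time. The ratio of Slc25a5 to Slc25a4 was 4.09, 4.10 and 3.57 in IL-33 libraries and 3.28, 3.65 and 3.49 in PBS libraries, so it overlapped between the groups.

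The calcium-regulated carriers that exchange ATP-Mg for phosphate did not move together. Slc25a24 measured 11.7, 11.9 and 9.37 FPKM with IL-33 and 7.60, 8.51 and 7.75 FPKM with PBS, a change of 0.42 (SE 0.10, limma adjusted p = 0.0126), while Slc25a23 measured 1.55, 1.93 and 2.01 FPKM with IL-33 and 3.89, 3.09 and 2.35 FPKM with PBS, a change of -0.53 (SE 0.15, limma adjusted p = 0.0229). Both were separated by group, in opposite directions. The call of Slc25a24 was lost with equal totals (0.11), and that of Slc25a23 was lost with cyclic loess and without IL-33 replicate 1, PBS replicate 1 or PBS replicate 2. Slc25a25, at 13.99, 13.7 and 12.8 FPKM with IL-33 and 13.5, 12.1 and 15.8 FPKM with PBS, overlapped between the groups (change -0.02, SE 0.10, limma adjusted p = 0.856). Slc25a17, the peroxisomal member that carries CoA, FAD and NAD, measured 38.0, 35.8 and 39.7 FPKM with IL-33 and 27.9, 28.4 and 30.1 FPKM with PBS, a change of 0.38 (SE 0.07, limma adjusted p = 0.00337) that was not called with equal totals (0.05). Of the 10 members grouped as adenine nucleotide carriers, 8 were tested, 4 were called higher and 1 lower. Slc25a16 and Slc25a42, which are linked to CoA, did not pass.

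Promoter sequences are shown for carriers called in either direction, because genes that move together can be compared for shared short motifs. They come from RefSeq (GRCm38.p6) and are cut to the bases before the annotated gene model, given 5' to 3' on the gene's strand. Capitals mark exact matches, on either strand, to the NRF1 motif (found only in Slc25a3), CCGGAAG (ETS factors), CCAAT (NF-Y) and GGGCGG (SP1), and CACGTG and TATAAA were searched too. The Ucp2 stretch is chr7:100493108-100493336 on the plus strand, that of Slc25a5 chrX:36795347-36795596 on the plus strand, and that of Slc25a3 chr10:91124060-91124217 on the minus strand. The GENCODE model of Slc25a5 begins later, at 36795651, and the bases after its RefSeq start were in no GENCODE transcript of the gene. For the other stretches they were. The Slc25a20 stretch is chr9:108661886-108662087 on the plus strand. For 2 carriers called lower, the Slc25a28 stretch is chr19:43674882-43675131 on the minus strand and that of Slc25a53 is chrX:137038303-137038552 on the minus strand.
Ucp2: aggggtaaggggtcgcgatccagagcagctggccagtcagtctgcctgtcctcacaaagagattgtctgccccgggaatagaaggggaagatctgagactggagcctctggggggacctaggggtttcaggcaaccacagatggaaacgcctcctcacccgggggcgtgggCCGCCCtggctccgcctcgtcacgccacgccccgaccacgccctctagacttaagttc
Slc25a5: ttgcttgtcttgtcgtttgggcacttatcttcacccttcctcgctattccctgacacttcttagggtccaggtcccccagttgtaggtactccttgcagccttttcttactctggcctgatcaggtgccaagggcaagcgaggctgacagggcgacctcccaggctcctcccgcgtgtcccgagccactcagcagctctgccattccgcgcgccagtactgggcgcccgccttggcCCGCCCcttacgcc
Slc25a3: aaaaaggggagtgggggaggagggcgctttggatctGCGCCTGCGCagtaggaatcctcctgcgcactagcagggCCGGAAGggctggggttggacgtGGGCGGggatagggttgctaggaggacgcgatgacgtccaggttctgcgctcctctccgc
Slc25a20: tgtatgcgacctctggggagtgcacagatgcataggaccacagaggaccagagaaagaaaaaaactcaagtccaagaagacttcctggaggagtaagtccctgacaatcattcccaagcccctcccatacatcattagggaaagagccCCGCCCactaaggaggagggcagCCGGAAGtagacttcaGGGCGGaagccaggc
Slc25a28: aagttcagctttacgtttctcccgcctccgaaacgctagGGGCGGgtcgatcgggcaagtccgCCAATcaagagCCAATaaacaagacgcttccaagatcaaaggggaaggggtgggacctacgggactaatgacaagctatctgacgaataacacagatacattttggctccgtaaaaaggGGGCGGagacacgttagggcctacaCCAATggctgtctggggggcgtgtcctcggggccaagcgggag
Slc25a53: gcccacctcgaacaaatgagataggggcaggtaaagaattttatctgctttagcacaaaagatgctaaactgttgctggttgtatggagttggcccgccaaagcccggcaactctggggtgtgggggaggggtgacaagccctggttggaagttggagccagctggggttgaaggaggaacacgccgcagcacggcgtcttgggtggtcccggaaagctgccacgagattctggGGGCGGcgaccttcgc
Of these, Slc25a3 and Slc25a20 hold CCGGAAG, Slc25a3 alone holds the NRF1 motif, Slc25a28 alone holds CCAAT, and all 6 hold GGGCGG or its reverse complement.

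Promoter windows of 250 bases before the start were found for 39 members, of which 31 were tested. CCGGAAG was in 5 of 15 members called higher (Slc25a3, Slc25a4, Slc25a17, Slc25a20 and Slc25a38), in 0 of 4 called lower and in 0 of 12 that did not pass, against 6.91% of all 32851 promoters and 14.8% of those of 8813 tested genes. GGGCGG was in 11 of 15, 4 of 4 and 7 of 12 of these members, against 32.7% of all promoters and 59.0% of those of tested genes. CCAAT was in 6 of 15, 3 of 4 and 4 of 12, against 33.8% and 36.9%. CACGTG was in 2 of 15, 1 of 4 and 2 of 12, against 6.02% and 8.52%. The NRF1 motif was in 1 of the 31 and TATAAA in 0, against 8.82% and 6.10% of the promoters of tested genes (3.74% and 12.4% of all). No matches to different motifs overlapped in these promoters. A match describes letters and shows no binding.

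The 3 tested carriers of di- and tricarboxylates, of 4, were called higher by a small amount, and none kept its call with equal totals. Slc25a11, which exchanges oxoglutarate for malate, measured 88.0, 76.5 and 74.8 FPKM with IL-33 and 61.8, 63.1 and 64.4 FPKM with PBS, a change of 0.33 (SE 0.08, limma adjusted p = 0.00989). Slc25a1, the citrate exporter that feeds lipid synthesis, measured 26.4, 22.7 and 21.5 FPKM with IL-33 and 18.7, 18.3 and 19.4 FPKM with PBS, a change of 0.31 (SE 0.09, limma adjusted p = 0.0206). Slc25a10, which exchanges malate or succinate for phosphate, measured 9.55, 8.90 and 9.10 FPKM with IL-33 and 7.33, 6.45 and 6.81 FPKM with PBS, a change of 0.37 (SE 0.08, limma adjusted p = 0.00578). All 3 were separated by group, and with equal totals their changes were -0.01, -0.02 and 0.07 in that order, none of them called. Slc25a11 also lost its call with quantile and cyclic loess scaling, and Slc25a1 without PBS replicate 2; 8.92% of the exon bases of Slc25a11 are shared with Rnf167 on the opposite strand. Slc25a21, a carrier of oxodicarboxylates, was at 0.11, 0.07 and 0.15 FPKM with IL-33 and was listed at 0 in every PBS library.

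Among aspartate and glutamate carriers, the low-expressed paralogue was the one called. Slc25a12, the calcium-regulated aspartate-glutamate exchanger of the malate-aspartate shuttle, was at 15.8, 17.2 and 14.8 FPKM with IL-33 and 15.4, 15.0 and 15.4 FPKM with PBS and did not pass (change 0.06, SE 0.07, limma adjusted p = 0.556). Slc25a13, its paralogue known as citrin, measured 4.25, 4.59 and 3.12 FPKM with IL-33 and 2.55, 2.94 and 2.95 FPKM with PBS, a change of 0.38 (SE 0.13, limma adjusted p = 0.0431). The Slc25a13 call was lost in 8 of the 13 alternatives that tested it, among them the replicate block and leaving out any 1 of 5 libraries, IL-33 replicate 3 being the exception. Slc25a22, a glutamate carrier, measured 9.92, 8.66 and 9.49 FPKM with IL-33 and 13.3, 10.9 and 10.3 FPKM with PBS, a change of -0.27 that did not pass (SE 0.11, limma adjusted p = 0.0706) although the groups did not overlap; without PBS replicate 3 it was called lower.

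Slc25a20, which carries acylcarnitines into mitochondria for fatty acid oxidation, showed one of the larger changes of the family. It measured 30.1, 41.5 and 38.8 FPKM with IL-33 and 20.03, 18.9 and 24.9 FPKM with PBS. The lowest IL-33 library stood above the highest PBS library, and the change was 0.76 (SE 0.14, limma adjusted p = 0.00429), or 0.43 with equal totals (limma adjusted p = 0.0466). Slc25a38, which brings in glycine for haem synthesis, measured 29.2, 26.5 and 26.7 FPKM with IL-33 and 21.8, 23.3 and 22.4 FPKM with PBS, a change of 0.28 (SE 0.07, limma adjusted p = 0.0123). Slc25a29, a carrier of basic amino acids, measured 1.63, 2.23 and 1.93 FPKM with IL-33 and 1.36, 1.10 and 1.24 FPKM with PBS, a change of 0.39 (SE 0.11, limma adjusted p = 0.025). Both were separated by group, but with equal totals Slc25a38 was at -0.05 and Slc25a29 at 0.18, neither called, and the Slc25a29 call was also lost with the replicate block and without IL-33 replicate 2 or 3 or PBS replicate 2 or 3. Slc25a44, a carrier of branched-chain amino acids, and Slc25a15, an ornithine carrier, did not pass, although Slc25a15 was called higher with quantile (0.34) and cyclic loess (0.40) scaling, so this group of 6 had 5 tested and 3 called higher.

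The mitoferrins, which bring iron into mitochondria for haem and iron-sulphur cluster assembly, were both called lower. Slc25a37, mitoferrin 1, the form on which red cell precursors depend, measured 7.66, 8.50 and 8.58 FPKM with IL-33 and 20.2, 17.3 and 14.5 FPKM with PBS. Its groups did not overlap, and its change of -0.98 (SE 0.12, limma adjusted p = 0.000982) was the lowest of the tested members on the log2(FPKM + 1) scale, with means of 8.25 ± 0.51 and 17.3 ± 2.87 FPKM (SD, n = 3 each) and a ratio of 0.476 (0.475 for Slc25a53). Slc25a28, mitoferrin 2, the widely expressed form, measured 14.2, 15.0 and 15.9 FPKM with IL-33 and 20.2, 17.4 and 17.7 FPKM with PBS, a change of -0.28 (SE 0.08, limma adjusted p = 0.0249). With equal totals the changes were -1.29 for Slc25a37 and -0.60 for Slc25a28, both called. The Slc25a28 call was lost with the replicate block and without IL-33 replicate 1 or 2 or PBS replicate 1, whereas that of Slc25a37 held in all 14 alternatives.

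Red cell transcripts were present in these libraries and varied within both groups. Hbb-bs, Hbb-b1, Hbb-b2, Hba-a1 and Alas2 fell from replicate 1 to 2 to 3 in both groups, and the other listed markers did not. Hba-a1 was at 254, 64.4 and 29.3 FPKM with IL-33 and 458, 159 and 60.3 FPKM with PBS. The 11 erythroid markers in the files summed to 92.1 to 663 FPKM with IL-33 and 195 to 1220 FPKM with PBS, and of 6 tested, only Tfrc was called, lower. What part red cell precursors had in the Slc25a37 values was not tested. Slc25a37 lies on chromosome 14 (69241848 to 69285112, minus strand, mm10), and shares 6.33% of its exon bases with Gm31748 and 1.53% with Gm27223, both on the opposite strand.

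Slc25a39, needed for glutathione in mitochondria, was called higher and its paralogue Slc25a40 was not called. Slc25a39 measured 56.3, 47.4 and 45.2 FPKM with IL-33 and 33.2, 30.9 and 33.3 FPKM with PBS, a change of 0.59 (SE 0.09, limma adjusted p = 0.00212), or 0.26 with equal totals (still called). Slc25a40 measured 3.03, 3.58 and 2.93 FPKM with IL-33 and 3.79, 3.85 and 4.69 FPKM with PBS, a change of -0.29 (SE 0.11, limma adjusted p = 0.0559). Each gene was separated by group, Slc25a39 upward and Slc25a40 downward. Slc25a40 was called lower with equal totals, with no variance trend and without IL-33 replicate 2.

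Of the cofactor and pyrimidine nucleotide carriers described here, Slc25a36 was called and the others did not pass. Slc25a36, a pyrimidine nucleotide carrier, measured 13.4, 14.5 and 14.7 FPKM with IL-33 and 18.7, 17.8 and 19.3 FPKM with PBS, a change of -0.37 (SE 0.07, limma adjusted p = 0.0045). Its call held in all 14 alternatives, and its groups were separated. Slc25a33, the related pyrimidine nucleotide carrier, was at 3.46, 3.84 and 4.14 FPKM with IL-33 and 3.63, 4.99 and 5.10 FPKM with PBS (change -0.20, SE 0.13, limma adjusted p = 0.214; called lower without PBS replicate 1), and 14.9% of its exon bases are shared with Gm13068 on the opposite strand. Slc25a51, the NAD carrier, was at 16.1, 16.4 and 14.2 FPKM with IL-33 and 15.8, 13.8 and 14.5 FPKM with PBS, so the groups overlapped (change 0.08, SE 0.08, limma adjusted p = 0.453). Slc25a32, which carries folate, and Slc25a26, which carries S-adenosylmethionine, did not pass.

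Slc25a53 and Slc25a45, whose substrates are less settled, went in opposite directions. Slc25a53, on chromosome X, measured 2.25, 2.37 and 2.49 FPKM with IL-33 and 6.33, 4.33 and 4.30 FPKM with PBS, a change of -0.81 (SE 0.14, limma adjusted p = 0.0029). Its groups did not overlap, and it kept its call in each of the 13 alternatives that tested it, with -1.08 at equal totals. Slc25a45, the sixth most abundant carrier, measured 59.6, 56.1 and 56.0 FPKM with IL-33 and 48.7, 49.5 and 51.0 FPKM with PBS, a change of 0.20 (SE 0.06, limma adjusted p = 0.0266). The Slc25a45 change turned to -0.14 with equal totals and to -0.0043 with cyclic loess, and its call was lost in 8 of the 14 alternatives. Slc25a46, an outer membrane member linked to mitochondrial fission, was at 11.8, 11.2 and 11.0 FPKM with IL-33 and 11.1, 11.0 and 11.4 FPKM with PBS (change 0.02, SE 0.07, limma adjusted p = 0.823). Slc25a35, which shares 31.3% of its exon bases with Rangrf on the opposite strand, did not pass, nor did Slc25a43 and Slc25a14.

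**Figure D3:**
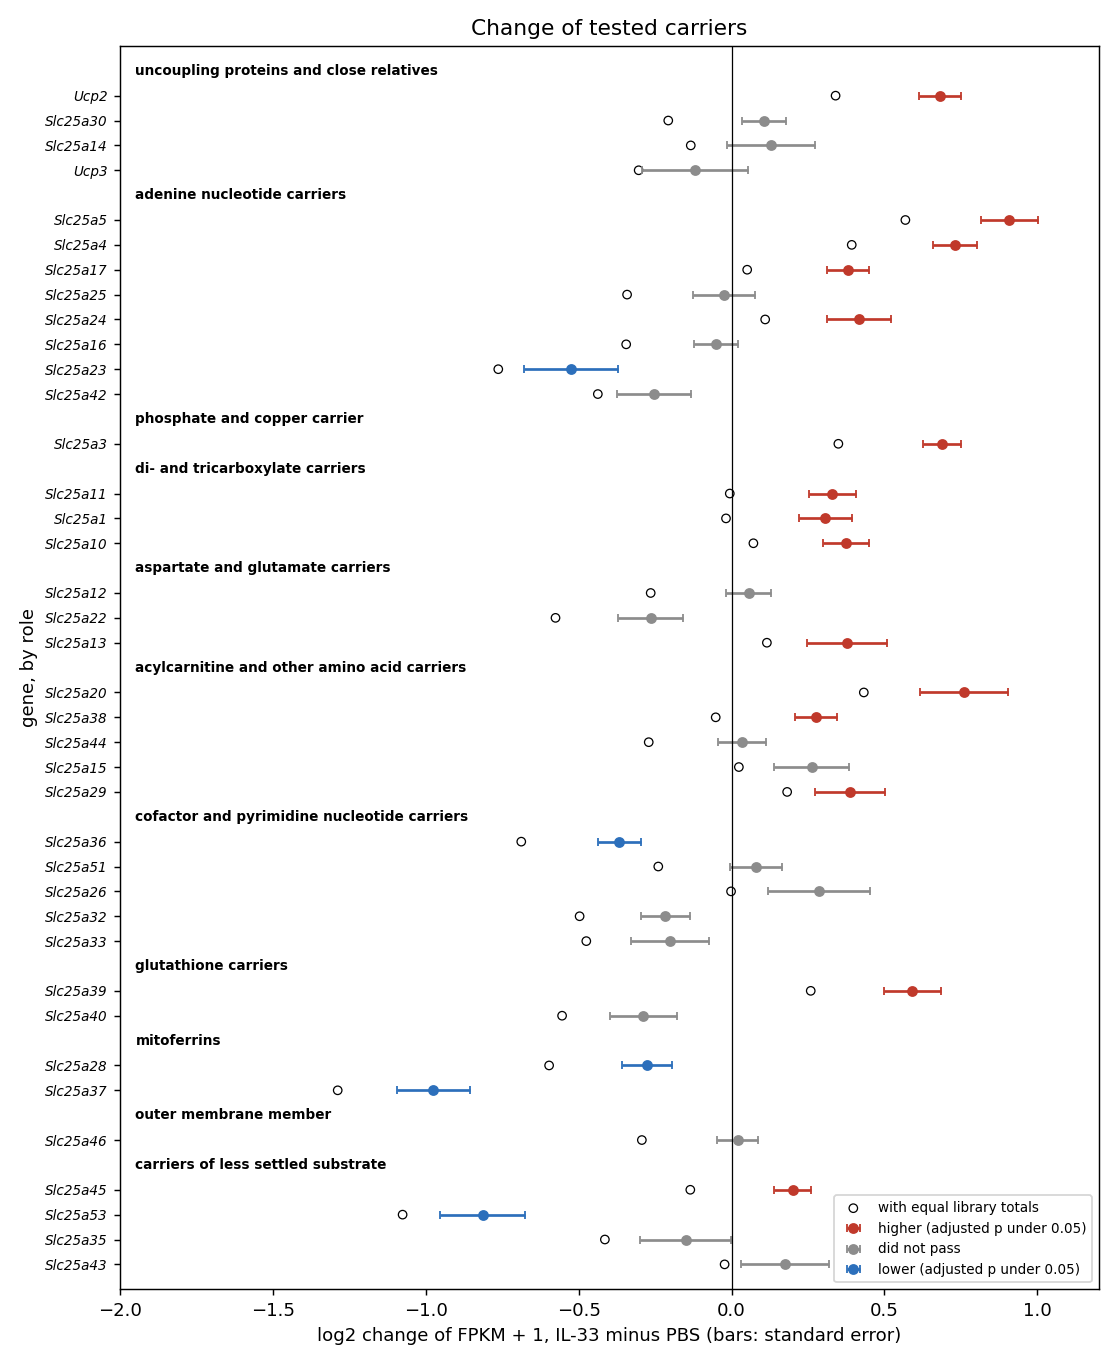
Change in log2(FPKM + 1), IL-33 minus PBS, with its standard error, for 38 tested carriers grouped by role and coloured by call; open circles give the same change after scaling every library to equal totals. Slc25a5 lies furthest right (0.91) and Slc25a37 furthest left (-0.98), and the open circles lie to the left of the filled ones.

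The 11 members under the test level covered several roles. Slc25a47, Slc25a27, Slc25a31, Ucp1, Slc25a2, Slc25a21, Slc25a34, Slc25a18 and Slc25a41 had a value above 0 in at least 1 library, and Slc25a48 and Slc25a54 were listed at 0 in all 6. In each library 45 or 46 members were above 0 and 38 or 39 reached 1 FPKM.

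For 6 pairs of related carriers, FPKM ratios are given for each library, and the difference in change was taken on the log2(FPKM + 1) scale and tested by an exact two-sided permutation test, whose smallest possible p is 0.1 with 3 libraries against 3. The ratio of Slc25a39 to Slc25a40 was 18.6, 13.2 and 15.4 with IL-33 and 8.77, 8.04 and 7.09 with PBS, a difference in change of 0.88. The ratio of mitoferrin 1 to mitoferrin 2, Slc25a37 to Slc25a28, was 0.539, 0.567 and 0.541 with IL-33 and 1.00, 0.995 and 0.817 with PBS, a difference in change of -0.70. Both pairs were fully separated, which gave the smallest exact p of 0.1 (adjusted over the 6 pairs 0.15). The ratio of Slc25a24 to Slc25a25 was 0.838, 0.869 and 0.731 with IL-33 and 0.561, 0.705 and 0.490 with PBS (difference 0.44), and that of Slc25a12 to Slc25a13 was 3.72, 3.75 and 4.74 with IL-33 and 6.05, 5.09 and 5.23 with PBS (difference -0.32). These pairs too were separated, each with exact p = 0.1 (adjusted 0.15), so none of the 4 passed the threshold in this design.

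The remaining pairs overlapped between the groups. The ratio of Slc25a4 to Slc25a5 was 0.245, 0.244 and 0.280 with IL-33 and 0.305, 0.274 and 0.286 with PBS (difference in change -0.18, exact p = 0.2, adjusted 0.24). That of Slc25a33 to Slc25a36 was 0.259, 0.266 and 0.281 with IL-33 and 0.194, 0.280 and 0.264 with PBS (difference 0.17, exact p = 0.3, adjusted 0.3), and the difference was 0.033 without PBS replicate 1, 0.25 without PBS replicate 2, 0.27 with quantile and 0.29 with cyclic loess scaling. A p above the threshold does not show that paralogues moved alike.

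**Figure D4:**
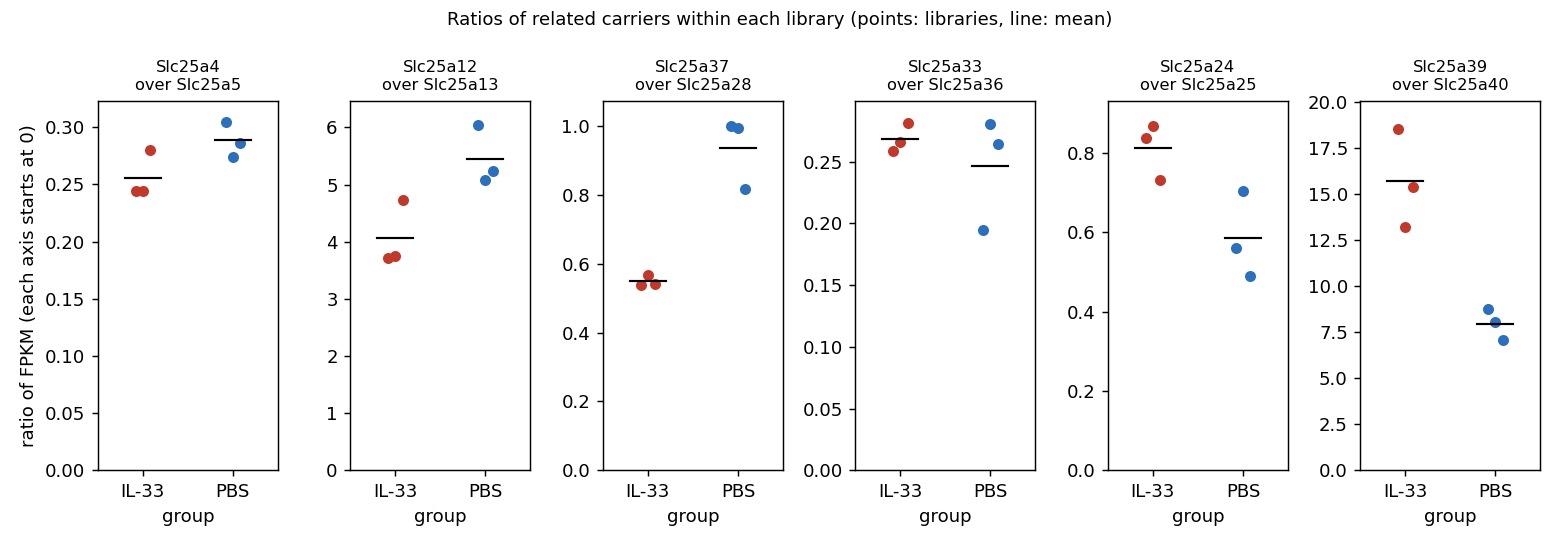
Ratio of FPKM of 6 pairs of related carriers in each library, IL-33 left of PBS, with points for libraries and a line for the group mean; every axis starts at 0. The IL-33 and PBS points are apart for 4 pairs, with Slc25a37 over Slc25a28 between 0.539 and 0.567 in IL-33 libraries and between 0.817 and 1.00 in PBS libraries.

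Genes that work with the carriers were counted from lists of partners. Their counts stand beside 28.0% of all tested genes called higher and 25.5% lower, or 11.0% and 50.9% with equal totals. On the deposited scale these shares depend on level. At 1 to 10, 10 to 100 and 100 FPKM or more, 14.7, 33.7 and 66.3% of genes were called higher and 32.1, 22.5 and 6.72% lower. Tested partners lie in each of these ranges, so counts of abundant partners have a higher share beside them. Of 12 tested genes of the carrier import route, 6 were called higher and 1, Agk, a part of the TIM22 insertion complex, lower. Tomm20, an import receptor, averaged 35.9 ± 2.02 FPKM with IL-33 and 24.05 ± 0.41 FPKM with PBS (change 0.56, SE 0.07, limma adjusted p = 0.000883), and Tomm22, its partner receptor, averaged 152 ± 7.08 and 99.5 ± 7.002 FPKM (change 0.61, limma adjusted p = 0.000982). With equal totals 5 of the 12 were called higher and 3 lower, and with quantile and with cyclic loess scaling 6 higher and 1 lower. Of 14 tested genes of other mitochondrial membrane channels, 9 were called higher and 0 lower, and with equal totals 2 were called higher and 4 lower of 15. With quantile scaling 8 of 14 were called higher and 0 lower, and with cyclic loess scaling 7 and 0. Among these, Vdac1, the main pore of the outer membrane, averaged 96.8 ± 6.74 FPKM with IL-33 and 58.4 ± 4.44 FPKM with PBS (change 0.72, limma adjusted p = 0.000777), and Mtch1, a distant relative of the carriers in the outer membrane, averaged 70.7 ± 6.86 and 35.7 ± 0.98 FPKM (change 0.96, limma adjusted p = 0.000323).

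Enzymes on either side of the carriers were counted in the same way. In the malate-aspartate and citrate shuttles, 6 of 7 tested enzymes were called higher and 0 lower, but 2 were called higher under each other scaling (with 1 lower with equal totals, 0 with quantile and 1 with cyclic loess scaling). Got1, the cytosolic aspartate aminotransferase, averaged 41.9 ± 2.87 FPKM with IL-33 and 14.7 ± 0.45 FPKM with PBS, a change of 1.45 (SE 0.07, limma adjusted p = 4.76e-05), and Me2, a mitochondrial malic enzyme, averaged 58.5 ± 0.89 and 35.4 ± 0.69 FPKM (change 0.71, limma adjusted p = 0.000256). Of 8 mitochondrial glutathione and antioxidant enzymes, 7 were called higher and 0 lower (5 and 0 with equal totals), among them Gpx1, a glutathione peroxidase, at 1347 ± 186 FPKM with IL-33 and 683 ± 50.8 FPKM with PBS (change 0.97, limma adjusted p = 0.000823), and Txn2, the mitochondrial thioredoxin, at 124 ± 12.2 and 71.1 ± 1.97 FPKM (change 0.79, limma adjusted p = 0.000561). Beside the acylcarnitine carrier, 1 of 5 carnitine shuttle genes was called higher and 0 lower (1 and 1 with equal totals). That gene was Crat, carnitine acetyltransferase, at 14.6 ± 2.30 FPKM with IL-33 and 4.38 ± 0.08 FPKM with PBS (change 1.53, limma adjusted p = 0.000201).

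Beside the lower mitoferrins, 6 of 12 haem and iron-sulphur cluster enzymes were called higher and 1, Ppox, lower, but with equal totals 0 were called higher and 3 lower. With quantile and with cyclic loess scaling, 5 were called higher and 1 lower. Fech, which inserts iron into haem, averaged 13.2 ± 0.75 FPKM with IL-33 and 9.27 ± 0.17 FPKM with PBS (change 0.46, limma adjusted p = 0.00192, and 0.15 with equal totals). Alas1, the first enzyme of haem synthesis outside red cells, averaged 18.9 ± 2.32 FPKM with IL-33 and 12.999 ± 0.70 FPKM with PBS (change 0.50, limma adjusted p = 0.00481, and 0.18 with equal totals). Both lost their calls with equal totals, whereas Slc25a37 and Slc25a28 were called lower on both scales. With quantile and cyclic loess scaling the change of Fech was 0.52 and 0.54, and that of Alas1 was 0.50 and 0.52.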

How the data were processed

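Transcripts were measured in 3 IL-33 and 3 PBS libraries of splenic CD11c+ cells. The authors deposited 1 table of FPKM values per library. Cuffnorm 2.2.1, TopHat2 2.0.13 with Bowtie2 2.2.3, SAMtools 0.1.19 and the build mm10 appear in the submitters' processing notes. Not given in the sources used here are the annotation, the scaling between libraries and the strand setting. FPKM holds no counts, so depth is unknown, and an exact 0 may be a failed estimate.

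The test was run on log2(FPKM + 1) with limma 3.58.1 in R 4.3.3 (trended variance, two-sided, Benjamini-Hochberg over 11518 genes of at least 1 FPKM in at least 3 libraries, no block). The code was also run on simulated data with few changed genes and no shift of totals. That setting differs from these data, so it does not show how the test performs here. Alternatives were a pseudocount of 0.1, no filter or 5 FPKM, equal totals, quantile and cyclic loess scaling, no variance trend, the replicate block, and leaving out each library. Members, lists, pairs and the naming rule were chosen with earlier results of these data known. Named with a test were members past the threshold, of at least 10 FPKM on average or in the 6 pairs. Up to 2 partners per list with the smallest adjusted p were named too. Other names follow from listing all members or all conventional dendritic cell markers, or were chosen after values were seen. For 1 tested member, included in the counts, no value of its own is reported here. Replicate numbers were not treated as pairs: over all tested genes, deviations of same-numbered libraries correlated at 0.07, -0.05 and 0.09. Haemoglobin transcripts did follow the numbers in both groups, so shared handling by number cannot be told from the labels. Positions came from GENCODE for GRCm38 (mm10) and promoters from RefSeq. Tables and figures used matplotlib 3.10.9, pandas 2.3.3 and numpy 2.4.6 in Python 3.11.15.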

Additional observations from a re-analysis of the deposited data

How the results depend on the processing

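Of the 21 called members, 6 higher (Ucp2, Slc25a5, Slc25a3, Slc25a4, Slc25a39, Slc25a20) and 3 lower (Slc25a36, Slc25a37, Slc25a53) were called in every one of the 14 alternatives that tested them, and 10 lost their call with equal totals. With equal totals 6 members were called higher and 15 lower, and the median of the members was -0.14; it was 0.072 without a filter and 0.28 with a filter of 5 FPKM, where 3 were called lower. Leaving out 1 library gave 12 to 15 members higher, 3 to 6 lower, a median of 0.10 to 0.16, and 4836 to 5876 of all genes called, against 6169. Changes that turned sign with equal totals were those of Slc25a11 (-0.0060), Slc25a45 (-0.14), Slc25a38 (-0.052), Slc25a1 (-0.018), Slc25a12 (-0.26), Slc25a51 (-0.24), Slc25a30 (-0.21), Slc25a46 (-0.29), Slc25a44 (-0.27), Slc25a14 (-0.13), Slc25a26 (-0.0018) and Slc25a43 (-0.023), with cyclic loess those of Slc25a45 (-0.0043), Slc25a25 (0.022), Slc25a16 (0.084) and Ucp3 (0.012), and with quantile scaling that of Slc25a16 (0.045). Leaving out 1 library moved Slc25a46 between -0.0086 and 0.038 and Slc25a25 between -0.11 and 0.071. The cause of these changes was not tested. With the replicate block, 5258 genes were called, 13 members higher and 4 lower. The labels do not state that the numbers are pairs, and 2 of 3 libraries correlated best with their own number. The difference in change of Slc25a4 and Slc25a5 was -0.03 with quantile scaling. Depth is unknown in FPKM, and 3 libraries a group limit what the exact tests can reach.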
